A study of Mus musculus with 18 samples.

Results

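This comparison sets spleens of mice on a high fat diet with AOS-FMT against spleens of mice on the same diet with control-FMT. AOS-FMT is read here as FMT from AOS-dosed donors, and control-FMT as FMT from control donors. A gene row was included where either group averaged 1 FPKM or more, which gave 12656 of 19326 rows. Of these, 12285 reached that level in both groups, 156 in AOS-FMT only and 215 in control-FMT only. FPKM counts sequenced fragments per length of transcript and per size of the library.

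All mice were of ICR, an outbred stock, aged 10 weeks, and the tissue was whole spleen. AOS is read here as alginate oligosaccharide, a breakdown product of a seaweed polysaccharide, and FMT as faecal microbiota transplantation. The labels give both FMT groups the high fat diet and an FMT, named with AOS at 10 mg/kg in AOS-FMT and with control in control-FMT. The dose is read here as given to the donors. The labels do not say so, and they do not give the diet of the donors. The other groups were the diet with AOS given directly (HFD+AOS), the diet alone (HFD), AOS alone at 10 mg/kg, and untreated controls, with 3 libraries in each of the 6 groups and 18 in all. The labels do not say whether 3 libraries came from 3 animals, and they name no donor, cage, batch or hour of sampling. P-values therefore measure only the spread between these libraries, which may be technical.

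Faecal transfer moves the gut microbiota of a donor into a recipient, so that effects carried by the microbes can be set apart from effects of a compound given to the animal itself. The spleen filters blood and, in the mouse, also makes red cells. Its cells, like most cells of the body, hold a circadian clock, in which the activators CLOCK and ARNTL (BMAL1) bind E-box sequences and switch on their own repressors (the period and cryptochrome genes, *Nr1d1* and *Nr1d2*) and output genes such as *Dbp*. The levels of these genes swing over the day, with *Dbp* and *Nr1d1* high when *Arntl* is low.

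The libraries carried the defining transcripts of spleen. The B cell gene *Cd79a* was at 844.3, 932.0 and 917.6 FPKM in AOS-FMT and at 878.1, 1024.9 and 957.1 FPKM in control-FMT, and the red pulp macrophage regulator *Spic* was at 36.2 to 45.4 FPKM in AOS-FMT and at 40.6 to 44.0 FPKM in control-FMT. Column totals over the 18 libraries ran between 627964 and 831448 FPKM. The number of reads behind a value is unknown. Transcripts of other tissues were present as well. The summed level of 14 liver genes was 67.0, 482.1 and 74.0 FPKM in AOS-FMT and 13.6, 17.9 and 25.2 FPKM in control-FMT. The sum over exocrine pancreas genes was 70.9, 3956 and 325.7 FPKM in AOS-FMT and 83.0, 10153 and 880.1 FPKM in control-FMT. The second library of each group held the most pancreas RNA, and AOS-FMT replicate 2 also held the most liver RNA. The part of these tissues in the results below was not tested, except where values without a library are given.

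One gene passed the test between the groups, and it was a clock output gene. *Dbp*, a transcription factor that drives rhythmic genes of metabolism, had 5.95, 4.68 and 7.12 FPKM in AOS-FMT and 17.96, 21.41 and 16.34 FPKM in control-FMT. The groups were far from overlapping, and the highest AOS-FMT library was below every control-FMT library. *Dbp* averaged 5.92 ± 1.22 FPKM in AOS-FMT and 18.6 ± 2.59 FPKM in control-FMT (SD, n = 3 each). The difference was −1.51 ± 0.17 (SE) in log2(FPKM + 1), with adjusted p = 0.00233 in limma. It was the only call among the 12656 genes tested, or 0.0079% of them. It was also called when any of the 18 libraries was left out, with differences of −1.63 to −1.37 and adjusted p of at most 0.0313. With the replicate number as a block in limma it was not called (adjusted p = 0.166) and no gene was. That fit held only the libraries of AOS-FMT and control-FMT. Without the block, 4 genes were called in these libraries, *Dbp* among them. The labels do not say whether the numbers pair libraries. *Dbp* lies on chr7:45705088-45710203 on the plus strand (GRCm38).

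*Nr1d1*, which encodes REV-ERBα, a repressor of *Arntl*, ranked next. It had 2.73, 1.79 and 4.37 FPKM in AOS-FMT and 10.02, 8.46 and 9.61 FPKM in control-FMT. All AOS-FMT libraries were below all control-FMT libraries. The difference was −1.44 ± 0.22 on the log2 scale and missed the threshold, with adjusted p = 0.0636. Leaving out 1 library moved it past the threshold in 3 of 18 cases (AOS replicate 3, HFD replicate 3 or AOS-FMT replicate 3), with adjusted p between 0.00892 and 0.461 over the 18. The gene lies on chr11:98767932-98775333 on the minus strand (GRCm38).

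**Figure D1:**
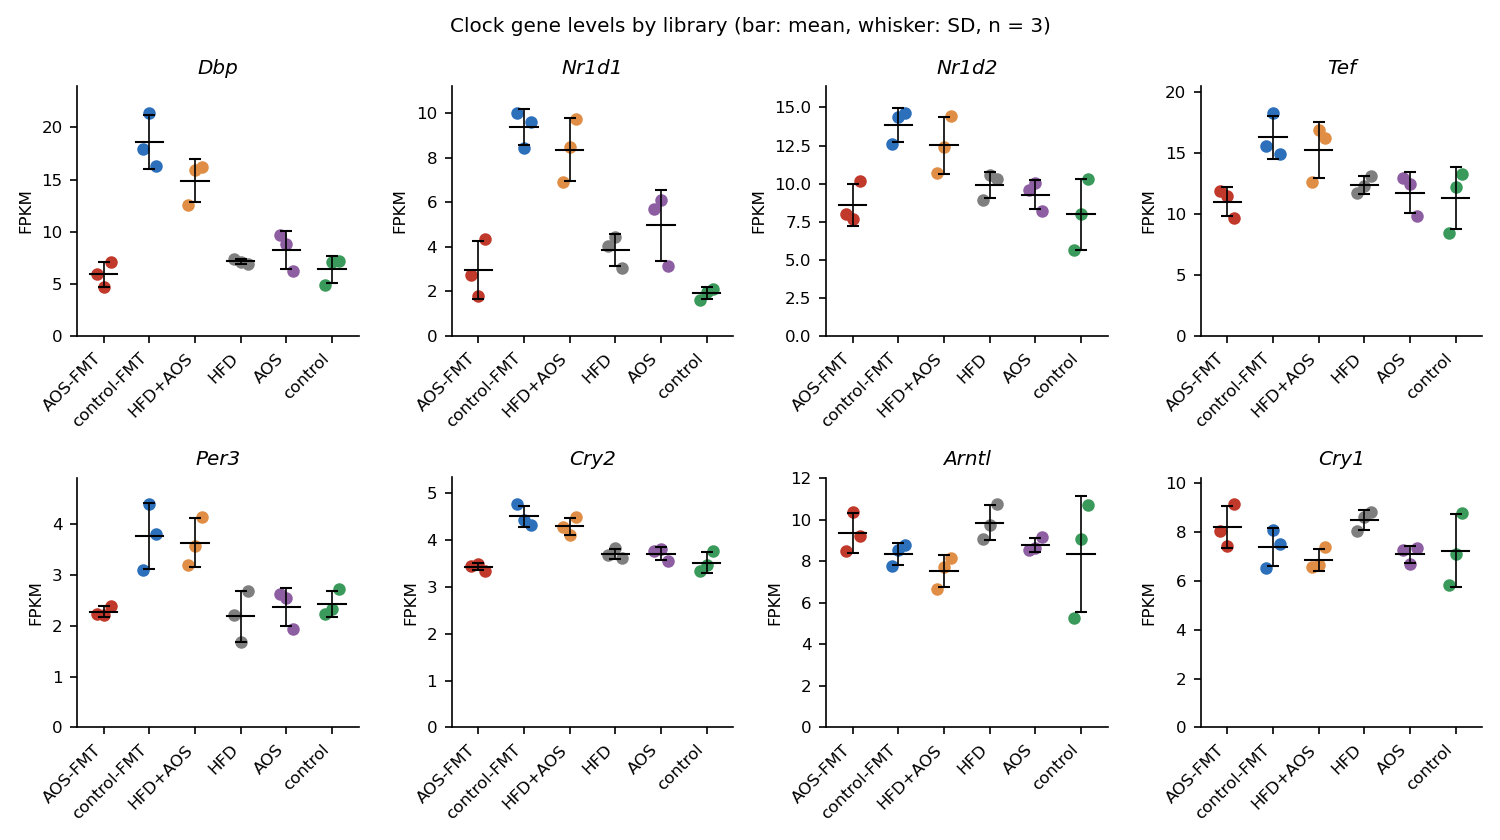
Levels of 8 clock genes in FPKM in each library of the 6 groups, with the mean (bar) and SD (whisker) of 3 libraries. *Dbp* averaged 5.92 FPKM in AOS-FMT and 18.6 FPKM in control-FMT, and *Arntl* and *Cry1* overlapped between these groups.

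The clock list held 18 genes, of which 17 were tested and 1, *Npas2*, was under the limit of 1 FPKM. Of the 17, 15 were lower in AOS-FMT and 2 higher. The groups did not overlap for 9 of the 17, all on the lower side, against 15.9% of all tested genes on that side. *Hlf*, among the 9, passed the limit through control-FMT alone, which fixed its direction. Of the 16 that passed in both groups, 14 were lower, 8 of them without overlap. An unadjusted p under 0.05 in limma on the lower side was found for 10 of the 17, against 6.83% of all genes. The median difference of the list was −0.28, and that of all tested genes −0.0526 on the log2 scale. These counts include *Dbp*, and the list was drawn up with that gene already known to differ.

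Among the repressors, *Nr1d2*, the close relative of *Nr1d1*, had 8.02, 7.65 and 10.18 FPKM in AOS-FMT and 12.6, 14.39 and 14.65 FPKM in control-FMT (log2 difference −0.64 ± 0.16, adjusted p = 0.274 in limma). *Cry2*, a cryptochrome, had 3.45, 3.49 and 3.34 FPKM in AOS-FMT and 4.76, 4.42 and 4.32 FPKM in control-FMT (−0.31 ± 0.07, adjusted p = 0.25). *Per3* had 2.22, 2.21 and 2.39 FPKM in AOS-FMT and 3.1, 4.38 and 3.79 FPKM in control-FMT (−0.53 ± 0.13, adjusted p = 0.274). The groups did not overlap for any of these 3 genes, and the AOS-FMT libraries lay close together for *Cry2* and *Per3*. *Ciart*, a repressor of CLOCK and ARNTL, had 2.35, 1.81 and 1.97 FPKM in AOS-FMT and 2.56, 2.63 and 2.81 FPKM in control-FMT, a log2 difference of −0.27. *Bhlhe41*, which competes for E-boxes, overlapped between the groups at −0.50, and so did *Bhlhe40* at −0.28 and *Per2* at −0.22. *Per1* lay at −0.06.

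Output genes of the family of *Dbp* lay the same way. *Tef* had 11.88, 11.44 and 9.67 FPKM in AOS-FMT and 15.59, 18.27 and 14.92 FPKM in control-FMT (log2 difference −0.52 ± 0.15). *Hlf* was weakly expressed, at 0.61, 0.47 and 0.61 FPKM in AOS-FMT and 1.05, 1.49 and 1.23 FPKM in control-FMT, and passed the limit on expression through control-FMT. Neither gene overlapped between the groups. *Nfil3*, which represses at the sites *Dbp* activates, overlapped at −0.18.

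In the activating limb the groups overlapped for the tested genes. *Arntl* had 8.48, 10.38 and 9.21 FPKM in AOS-FMT and 7.78, 8.53 and 8.8 FPKM in control-FMT, a difference of 0.14 ± 0.16 (SE), and *Clock* lay at −0.02 ± 0.14. *Cry1*, a cryptochrome, lay at 0.14 ± 0.11. The groups overlapped for all 3 genes. *Npas2*, an activator under the limit of 1 FPKM and not tested, did not overlap. It had 0.69, 0.98 and 0.67 FPKM in AOS-FMT and 0.39, 0.23 and 0.40 FPKM in control-FMT.

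Proximal promoter sequences of the clock genes are shown because many clock genes are known targets of E-box and D-box factors. They were taken from RefSeq (GRCm38.p6), which held a promoter for 15 of the 18 clock genes. The E-box searched was CACGTG and the D-box TTATGTAA, each on both strands, in 300 bases from 250 before to 50 after the start of transcription. The E-box was present at 5 of the 15 genes (*Tef*, *Ciart*, *Bhlhe41*, *Cry1* and *Per1*) and in 7.15% of 32851 promoters, or at 8.09% of genes. The D-box was present at 1 of the 15, *Per3*, and in 0.938% of promoters. Parts of 6 promoters follow, each from 5′ to 3′ on the strand of the gene, with matches in capitals.
Dbp, chr7:45705127-45705246, plus strand: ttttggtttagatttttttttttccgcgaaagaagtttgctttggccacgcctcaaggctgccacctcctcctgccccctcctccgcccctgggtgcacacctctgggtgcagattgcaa
Ciart, chr3:95882259-95882358, minus strand: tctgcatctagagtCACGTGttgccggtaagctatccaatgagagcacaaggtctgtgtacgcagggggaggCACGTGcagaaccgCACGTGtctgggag
Tef, chr15:81802528-81802567, plus strand: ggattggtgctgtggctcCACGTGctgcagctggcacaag
Bhlhe41, chr6:145865551-145865590, minus strand: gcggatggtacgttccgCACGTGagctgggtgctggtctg
Cry1, chr10:85185095-85185134, minus strand: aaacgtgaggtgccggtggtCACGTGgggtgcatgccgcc
Per3, chr4:151044806-151044885, minus strand: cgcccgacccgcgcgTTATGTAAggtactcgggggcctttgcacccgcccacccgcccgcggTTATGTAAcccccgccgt

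*Ciart* held 3 E-boxes within 100 bases and *Per3* 2 D-boxes within 80 bases. The *Dbp* stretch, the 120 bases before its start in RefSeq, lies inside the GENCODE span given above, whose start is further upstream. It held neither motif, which says only that these letters are not in that window. A match is a description of the letters. *Cry1*, with an E-box, lay at 0.14, and *Tef*, also with one, at −0.52. *Nr1d1* held neither motif in the window searched.

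The same diet offered a second contrast with no library in common, AOS given directly against none (HFD+AOS minus HFD). In it *Dbp* lay on the other side, at 12.53, 15.9 and 16.24 FPKM in HFD+AOS and at 7.36, 7.14 and 6.94 FPKM in HFD, a log2 difference of 0.96 ± 0.17 (adjusted p = 0.0919 in limma). The difference between the transfer and the direct contrast was −2.46 ± 0.24 for *Dbp* (adjusted p = 0.000339) and −2.39 ± 0.32 for *Nr1d1* (adjusted p = 0.00936). These 2 genes, 0.0158% of those tested, were the calls of that test. Without control-FMT replicate 1 *Dbp* alone was called. *Nr1d1* had 6.9, 8.48 and 9.72 FPKM in HFD+AOS and 4.06, 4.45 and 3.04 FPKM in HFD. *Per3* came close at −1.08 (adjusted p = 0.0841), with 3.18, 3.56 and 4.13 FPKM in HFD+AOS and 2.21, 1.67 and 2.67 FPKM in HFD.

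Over the 6 groups, the mean of *Dbp* was 5.92 FPKM in AOS-FMT, 18.6 FPKM in control-FMT, 14.9 FPKM in HFD+AOS, 7.15 FPKM in HFD, 8.22 FPKM in AOS and 6.39 FPKM in control. The libraries of AOS-FMT, HFD, AOS and control overlapped between neighbours when ordered by level. Those of control-FMT and HFD+AOS lay above all 4, and the highest HFD+AOS library was just under the lowest of control-FMT. *Nr1d1* averaged 2.96 FPKM in AOS-FMT, 9.36 in control-FMT, 8.37 in HFD+AOS, 3.85 in HFD, 4.97 in AOS and 1.91 FPKM in control. Whether the groups were sampled at different hours cannot be told from the labels, and the part of sampling time was not tested.

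Across all genes the transfer contrast and the direct contrast were hardly correlated. Pearson's r between their log2 differences was −0.0882 and Spearman's rho 0.0379 over 12656 genes, which are not independent replicates, and 56.6% of genes shared a sign. In the direct contrast limma called no gene, while 1910 genes (15.1%) had an unadjusted p under 0.05, 6.15% of genes on the higher and 8.94% on the lower side. For the difference between the contrasts 10.6% of genes had an unadjusted p under 0.05, 3.75% higher and 6.83% lower. In HFD+AOS minus HFD with the replicate number as a block 102 genes were called. That fit held only HFD+AOS, HFD and the FMT groups, and the same libraries without the block gave 12 calls. Whether the numbers pair libraries is not known there either.

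**Figure D2:**
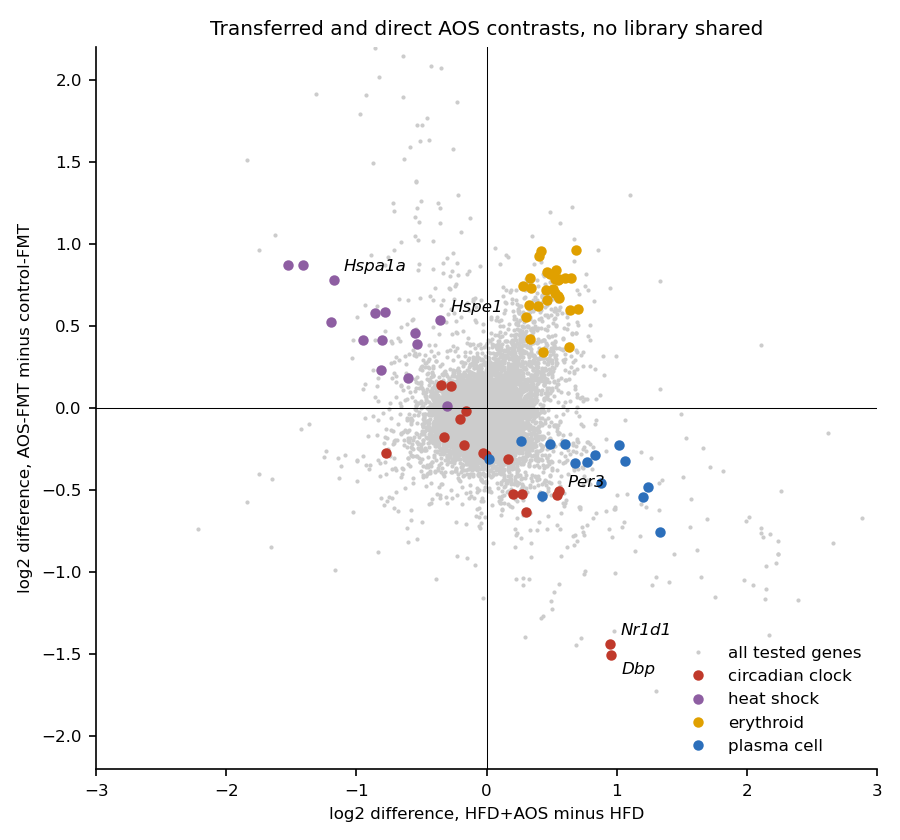
Log2 difference of each tested gene between AOS-FMT and control-FMT (vertical axis) against that between HFD+AOS and HFD (horizontal axis), with the clock, heat shock, erythroid and plasma cell lists coloured and 14 genes outside the axes. *Dbp* and *Nr1d1* lie at the lower right, at −1.51 and −1.44 on the vertical axis and 0.96 and 0.95 on the horizontal axis.

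Beyond *Dbp*, no single gene passed the test, and 1362 genes (10.8%) had an unadjusted p under 0.05, 498 higher and 864 lower in AOS-FMT. The log2 difference was above 0 for 34.2% of genes and below 0 for 65.8%, and 2.8% lay past 1.5-fold either way. The 3 AOS-FMT libraries did not overlap with the 3 control-FMT libraries for 3000 genes (23.7%), of which 982 (7.76%) were higher and 2018 (15.9%) lower. This excess of lower genes depended on scaling. After division by median-ratio size factors 1530 (12.1%) were higher and 1177 (9.3%) lower, so that the lower share was 43.5% in place of 67.3%. Haemoglobin transcripts took 26.4%, 21.5% and 24.3% of all FPKM in AOS-FMT and 15.4%, 18.4% and 18.8% in control-FMT, and with these rows left out the lower share was 59.1%.

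**Figure D3:**
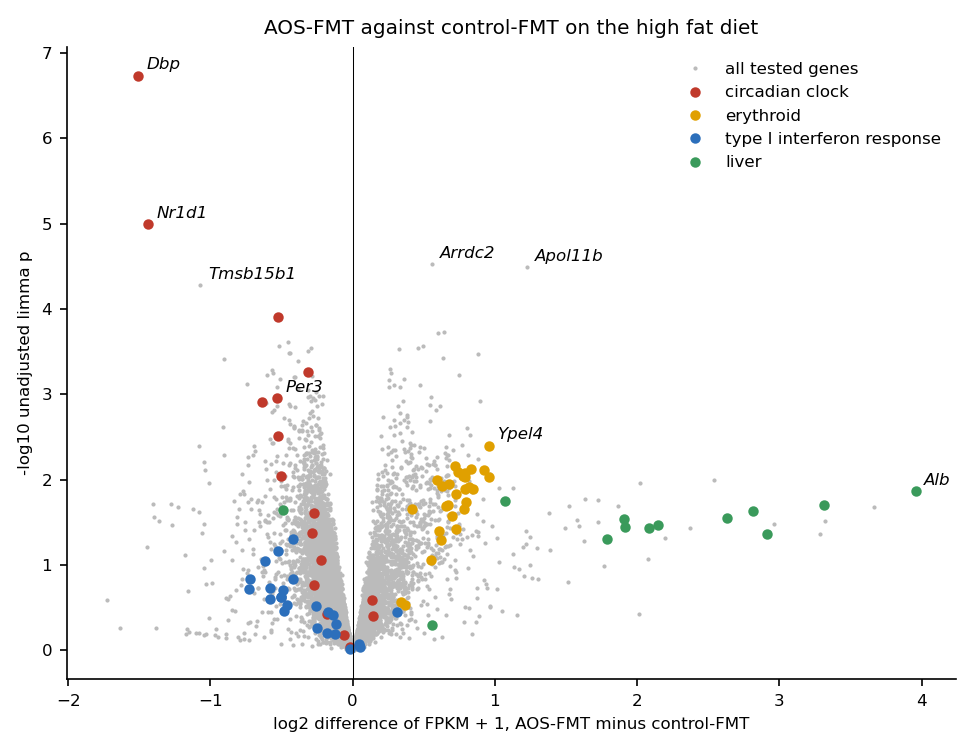
Log2 difference between AOS-FMT and control-FMT (horizontal axis) and −log10 of the unadjusted limma p (vertical axis) for each of 12656 genes, with 4 lists coloured. *Dbp* is at the upper left, the erythroid genes form a band between 0.34 and 0.96, and the liver genes spread up to 3.96.

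Of the 12 genes named on the higher side, none passed the threshold, and the lowest adjusted p was 0.102. *Apol11b*, of the apolipoprotein L family, had 25.14, 28.17 and 20.42 FPKM in AOS-FMT and 8.62, 8.58 and 12.89 FPKM in control-FMT. The groups were well apart, with a log2 difference of 1.22 ± 0.21 (adjusted p = 0.102). *Arrdc2*, an arrestin-domain protein, had 20.27, 19.02 and 17.74 FPKM in AOS-FMT and 11.78, 13.27 and 12.77 FPKM in control-FMT (0.56 ± 0.1, adjusted p = 0.102), and passed with HFD replicate 3 left out (adjusted p = 0.0497). Their positions are chr15:77633946-77643286 for *Apol11b* and chr8:70835129-70839720 for *Arrdc2*, both on the minus strand. *Apol11b* also stood at 23.8, 33.2 and 18.3 FPKM in HFD+AOS and 16.1, 12.5 and 17.0 FPKM in HFD, the same direction as in the transfer contrast.

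Others on the higher side were *Dnaja4* (0.88), a co-chaperone of HSP70, *Trmo* (0.74), a tRNA methyltransferase, *Frmd4a* (0.65), *Atp5e* (0.64), a subunit of ATP synthase, and *Pla2g4c* (0.60), a phospholipase. *Endod1* lay at 0.50, and *Gclc*, the catalytic subunit of the enzyme that limits glutathione synthesis, at 0.46. *Gcdh* (0.33), which breaks down lysine, *Slc20a1* (0.27), a phosphate transporter, and *Otud5* (0.26), a deubiquitinase, completed the set. The adjusted p of these 10 genes lay between 0.234 and 0.25.

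On the lower side *Dbp* and *Nr1d1* were followed by *Tmsb15b1*, a small actin-binding protein gene, with 0.61, 0.48 and 0.58 FPKM in AOS-FMT and 2.27, 2.53 and 2.03 FPKM in control-FMT (−1.07 ± 0.19, adjusted p = 0.132). This gene passed the limit on expression through control-FMT, and is close to other thymosin genes, so reads may be shared. *Grn*, the lysosomal growth factor progranulin, had 62.3, 65.7 and 62.45 FPKM in AOS-FMT and 101.28, 78.37 and 84.16 FPKM in control-FMT (−0.46 ± 0.1, adjusted p = 0.234). *Pltp*, the phospholipid transfer protein, had 27.43, 23.1 and 24.36 FPKM in AOS-FMT and 40.72, 34.56 and 33.33 FPKM in control-FMT (−0.52 ± 0.11). None of these 3 genes overlapped between the groups. *Cygb* (−0.57), cytoglobin, *Avpi1* (−0.45), *Zfp296* (−0.44), *Map4k1* (−0.38), a kinase of lymphocytes, *Pigt* (−0.31), which attaches GPI anchors, *Cry2* and *Galnt2* (−0.29) made up the rest, all at adjusted p between 0.234 and 0.25.

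Gene lists are given by their counts and medians, beside a median of −0.0526 over all tested genes. Of 49 lists, 47 had a tested member, and 35 of these had a median below 0 and 12 above it. Apart from *Dbp*, no member of any list passed the test across all genes. Under median-ratio scaling 6 lists changed sign, all with a median within 0.0456 of 0.

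**Figure D4:**
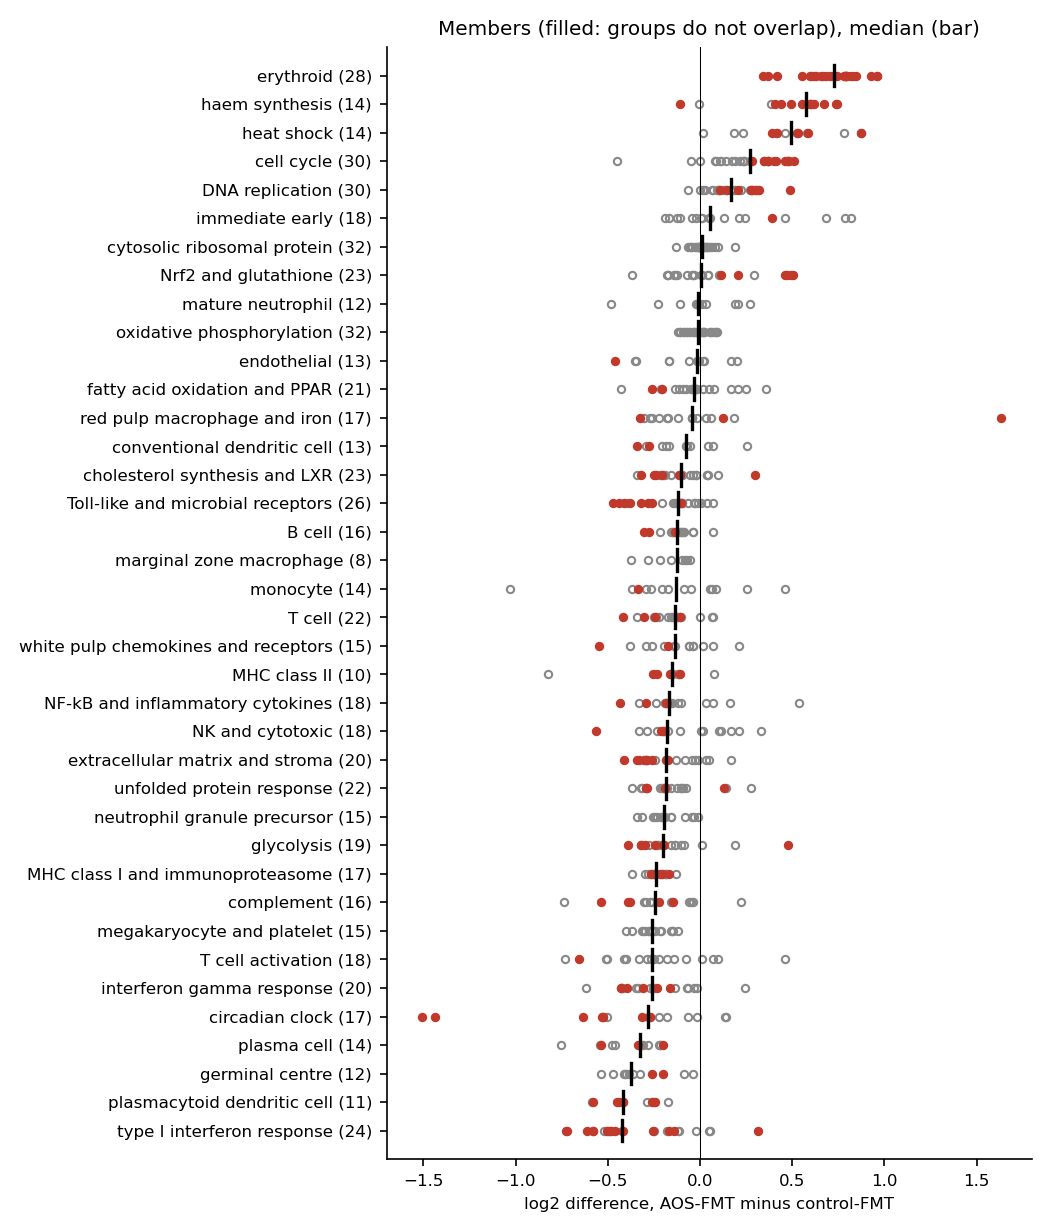
Log2 differences between AOS-FMT and control-FMT of the tested members of 38 lists, with the number tested in brackets. Filled points mark genes whose groups did not overlap and the bar marks the median. Among the lists shown it was highest for the erythroid list at 0.73 and lowest for the type I interferon list at −0.42. Not shown are the liver (2.08), exocrine pancreas (−0.89), adipocyte (−0.44) and smooth muscle (−0.09) lists and lists with few tested members.

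The erythroid list held 30 genes, of which 28 were in the table and tested. All 28 were higher and none overlapped between the groups, against 7.76% of all genes on that side. Of the 28, 24 had an unadjusted p under 0.05 on the higher side, against 3.93% of all genes, and the lowest adjusted p was 0.35. The median was 0.73, with a range of 0.34 to 0.96, and it lay between 0.64 and 0.88 when any library was left out. In bulk tissue more cells of a type and more RNA per cell cannot be told apart.

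*Klf1*, the transcription factor that directs the red cell programme, had 130.5, 124.6 and 113.9 FPKM in AOS-FMT and 66.7, 63.2 and 94.6 FPKM in control-FMT (log2 difference 0.73 ± 0.27). *Tfrc*, the transferrin receptor that brings in iron, had 118.1, 101.9 and 105.6 FPKM in AOS-FMT and 66.7, 63.7 and 79.7 FPKM in control-FMT (0.63 ± 0.22). In both, control-FMT replicate 3 was the nearest to AOS-FMT. *Ypel4* (0.96), *Tmcc2* (0.96), *Kel* (0.93), a blood group antigen, and *Rhag* (0.84), of the Rh complex, were at the upper end. *Bpgm* (0.34), which makes the regulator of oxygen release, and *Phospho1* (0.37) were at the lower end. The receptor for erythropoietin, *Epor*, lay at 0.78, the regulators *Tal1* and *Gata1* at 0.74 and 0.55, and the membrane anion exchanger *Slc4a1* at 0.79.

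Enzymes of haem synthesis lay with them. Of 14 genes 12 were higher, 11 of these without overlap, against 7.76% of all genes, and the median was 0.57. *Slc25a37*, the mitochondrial iron importer of red cell precursors, had 355.4, 313.2 and 296.0 FPKM in AOS-FMT and 168.9, 183.9 and 227.1 FPKM in control-FMT (0.74 ± 0.24). *Cpox* lay at 0.62 and *Fech*, which inserts the iron, at 0.60. *Alas2*, the first enzyme in red cells, lay at 0.55 with 500.6, 457.3 and 507.1 FPKM in AOS-FMT and 282.9, 359.1 and 361.3 FPKM in control-FMT. *Alas1*, the first enzyme in other cells, lay at −0.11. In the direct contrast 12 of the 14 genes were higher and 2 lower, at a median of 0.34.

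Globin genes followed less evenly. Of 10 listed genes 6 were tested, all higher with a median of 0.58, and 3 did not overlap, against 7.76% of all genes. *Hba-a1* stood at 123122, 91217 and 107531 FPKM in AOS-FMT and at 66056, 83769 and 77480 FPKM in control-FMT. The near-identical β genes of different haplotypes moved against each other between libraries, with *Hbb-bs* at 8595, 18558 and 21147 FPKM in AOS-FMT and at 12629, 8157 and 10027 FPKM in control-FMT, so values of single β genes are uncertain. Under quantile normalization the median was 0.18, with 3 genes higher and 2 lower.

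The mean of the list in log2(FPKM + 1) was 6.04, 5.99 and 5.91 in AOS-FMT and 5.13, 5.14 and 5.55 in control-FMT. It was 6.01, 5.76 and 5.17 in HFD+AOS and 5.79, 4.77 and 4.91 in HFD, with overlap, and 6.63, 6.18 and 5.96 in control. In the direct contrast all 28 genes were higher as well, with a median of 0.50, and the smallest unadjusted p of a difference between the contrasts in this list was 0.197.

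**Figure D5:**
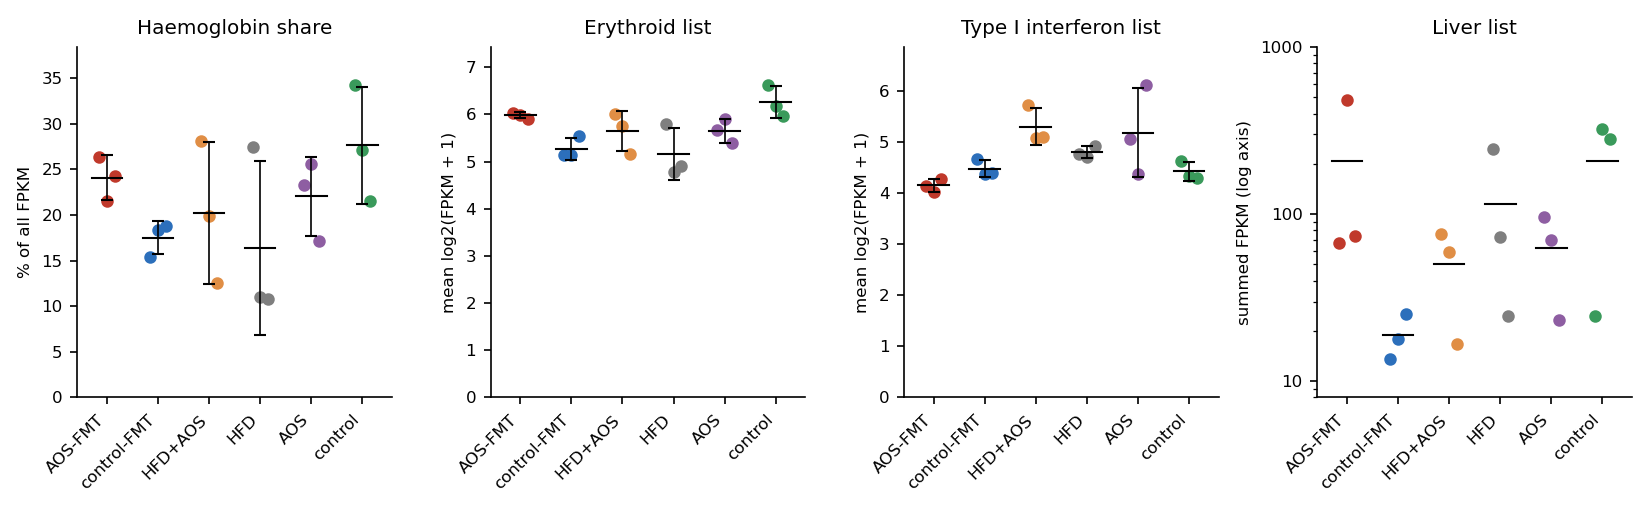
Haemoglobin share of FPKM (%), mean of the erythroid and of the type I interferon list in log2(FPKM + 1), and summed FPKM of the liver list on a log axis, per library of the 6 groups with the mean (bar) and, except for the liver list, the SD (whisker). The haemoglobin share was 21.5% to 26.4% in AOS-FMT and 15.4% to 18.8% in control-FMT, and liver transcripts reached 482.1 FPKM in AOS-FMT replicate 2.

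In the cell cycle list 28 of 30 genes were higher, against 34.2% of all genes, and 13 were so without overlap, against 7.76%, at a median of 0.27. Of the 30, 3 had an unadjusted p under 0.05. *Mki67*, a marker of dividing cells, had 134.0, 123.7 and 117.4 FPKM in AOS-FMT and 87.2, 81.1 and 94.9 FPKM in control-FMT (0.51 ± 0.21, adjusted p = 0.406). In the DNA replication list 29 of 30 were higher, 11 without overlap, at a median of 0.17. Of these 30, 1 had an unadjusted p under 0.05, a share near the 3.93% of all genes on that side. *Cdc6*, which loads the replicative helicase, had 27.8, 28.6 and 30 FPKM in AOS-FMT and 21.1, 17.2 and 22.7 FPKM in control-FMT (0.49 ± 0.16). The groups did not overlap for either gene. In the direct contrast all 30 genes of each list were higher as well, at medians of 0.44 for the cell cycle and 0.35 for DNA replication.

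Heat shock genes lay on opposite sides in the transfer and the direct contrast. All 14 lay above 0 in the transfer contrast, 6 without overlap, against 7.76% of all genes, at a median of 0.49. Of the 14, 1 had an unadjusted p under 0.05. The list mean in log2(FPKM + 1) overlapped between the groups, at 7.26, 7.52 and 6.96 in AOS-FMT and 6.37, 6.81 and 7.09 in control-FMT. *Hspe1*, the mitochondrial co-chaperonin, had 313.5, 331.1 and 286.2 FPKM in AOS-FMT and 199.6, 225.9 and 216.4 FPKM in control-FMT (0.53 ± 0.18, adjusted p = 0.35), and its partner *Hspd1* lay at 0.39. *Hsp90aa1*, the inducible HSP90, had 806.4, 878.3 and 622.8 FPKM in AOS-FMT and 423.8, 495.1 and 618.0 FPKM in control-FMT (0.59 ± 0.3). AOS-FMT replicate 3 and control-FMT replicate 3 were nearly level there.

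*Hspa1a*, the inducible HSP70, spread widely at 45.8, 66.8 and 20.7 FPKM in AOS-FMT and 12.3, 26.9 and 35.3 FPKM in control-FMT, with overlap. *Hsf1*, the factor that switches these genes on, lay at 0.01. In the direct contrast all 14 genes lay below 0, at a median of −0.81. The list mean overlapped there too, at 5.541, 5.274 and 6.516 in HFD+AOS and 5.795, 6.728 and 7.351 in HFD. For *Hspe1* the difference between the contrasts had an unadjusted p of 0.00368 and adjusted p = 0.225, and no heat shock gene passed that test. Without control-FMT replicate 1 the median of the transfer contrast was 0.32.

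Stress genes of the glutathione pathway were mixed. Of 24 listed genes 23 were tested, with 12 higher and 11 lower and a median of 0.003. Both subunits of the first enzyme lay higher without overlap, *Gclc* at 29.2, 29.1 and 29.5 FPKM in AOS-FMT and 18.5, 20.2 and 24.6 FPKM in control-FMT, and *Gclm* at 64.3, 66.2 and 64.4 FPKM in AOS-FMT and 44.5, 39.7 and 53.6 FPKM in control-FMT. The peroxidase gene *Gpx1*, abundant in red cells, lay at 0.47 and *Nqo1* at 0.49. The haem oxygenase gene *Hmox1* overlapped at −0.18, and *Nfe2l2*, which encodes the regulator NRF2, lay at 0.01.

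Of 26 listed genes of the type I response 24 were in the table and tested. Of these 21 were lower, against 65.8% of all genes, 14 of them without overlap, against 15.9%, at a median of −0.42. An unadjusted p under 0.05 was found for 1 of the 24 on the lower side, against 6.83% of all genes. *Ifit3*, which binds viral RNA complexes, had 8.46, 7.36 and 7.3 FPKM in AOS-FMT and 15.34, 12.39 and 12.51 FPKM in control-FMT (−0.72 ± 0.47, adjusted p = 0.609). *Irf7*, the factor that amplifies the response, had 33.1, 25.9 and 34.1 FPKM in AOS-FMT and 55.5, 44.4 and 41.1 FPKM in control-FMT (−0.58 ± 0.48). Neither gene overlapped between the groups.

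*Xaf1* had 13.1, 16.8 and 15.5 FPKM in AOS-FMT and 27.5, 23.1 and 20.6 FPKM in control-FMT. The groups did not overlap for this gene. An exception was *Rsad2* (viperin), which lay higher without overlap at 39.2, 41.9 and 51.9 FPKM in AOS-FMT and 37.9, 32.7 and 35.3 FPKM in control-FMT. Without control-FMT replicate 1 the list median was −0.22. In the direct contrast the list lay at 0.46, with 23 of 24 genes higher in HFD+AOS.

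Genes of plasmacytoid dendritic cells, which make type I interferon, lay the same way. All 11 were lower, 8 without overlap, against 15.9% of all genes, at a median of −0.42, and 2 of the 11 (*Bst2* and *Irf7*) are in the interferon list too. *Siglech*, a surface receptor that marks these cells, had 20.7, 16.4 and 20.8 FPKM in AOS-FMT and 30.5, 24.7 and 24.3 FPKM in control-FMT (−0.44 ± 0.22, adjusted p = 0.482). *Tcf4*, their lineage factor, had 20.7, 21.2 and 23.5 FPKM in AOS-FMT and 28.7, 25.8 and 24.6 FPKM in control-FMT (−0.26 ± 0.12). *Pacsin1* had the lowest unadjusted p of the list at 0.00802. Without AOS-FMT replicate 2 the median was −0.27.

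The interferon γ list had 19 of 20 tested genes lower, against 65.8% of all genes, and 5 without overlap, against 15.9%, at a median of −0.26. *Gbp2*, a guanylate-binding protein, had 22.7, 22.3 and 26.2 FPKM in AOS-FMT and 41.8, 27.8 and 28.9 FPKM in control-FMT (−0.43 ± 0.17). *Cxcl9*, a chemokine for T cells, had 11.1, 8.62 and 13.8 FPKM in AOS-FMT and 28.5, 14.1 and 13 FPKM in control-FMT, with overlap. Class I antigen presentation had 17 of 17 lower, 5 without overlap, also against 15.9%, at a median of −0.24. *Tap2*, of the peptide transporter, had 54.1, 51.7 and 57.6 FPKM in AOS-FMT and 73.8, 62.4 and 59.2 FPKM in control-FMT (−0.25 ± 0.09). Without control-FMT replicate 1 the medians were −0.13 for interferon γ and −0.125 for class I.

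Among class II genes 9 of 10 were lower, 5 without overlap, against 65.8% and 15.9% of all genes, at a median of −0.15. In the direct contrast 9 of the 10 were lower too, at a median of −0.32. *H2-DMa*, which helps load peptide, had 90.7, 82.9 and 92.9 FPKM in AOS-FMT and 110.4, 106.0 and 101.7 FPKM in control-FMT (−0.25 ± 0.09). *H2-Eb1* varied within each group, at 46.8, 102.0 and 332.9 FPKM in AOS-FMT and 376.0, 72.0 and 329.9 FPKM in control-FMT. The complement list had 15 of 16 lower and 5 without overlap, beside the same shares of all genes. *C3*, the central component, had 220.9, 246.4 and 207.9 FPKM in AOS-FMT and 324.8, 286.4 and 275.7 FPKM in control-FMT (−0.39 ± 0.12, adjusted p = 0.35). *Cfb*, of the alternative pathway, lay at −0.54 without overlap.

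Antibody-secreting cells gave a weaker picture. All 14 plasma cell genes were lower, but 3 were without overlap, a share near the 15.9% of all genes, at a median of −0.33 that was −0.11 without control-FMT replicate 1. *Jchain*, the joining chain of secreted antibodies, had 604.6, 481.9 and 524.9 FPKM in AOS-FMT and 1321, 604.7 and 519.3 FPKM in control-FMT, so that 1 control-FMT library stood far above the other 5. *Slamf7*, a surface receptor, had 13.4, 13.3 and 13.2 FPKM in AOS-FMT and 23.5, 18.7 and 17.5 FPKM in control-FMT (−0.54 ± 0.17), without overlap. In the direct contrast the 14 genes were higher in HFD+AOS at a median of 0.81, and for *Slamf7* the difference between the contrasts had adjusted p = 0.155. All 12 germinal centre genes lay below 0 too, 2 without overlap, a share near the 15.9% of all genes, at a median of −0.37, or −0.18 without control-FMT replicate 1 and −0.66 without control-FMT replicate 3.

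Lists of resident and abundant spleen cells lay closer to the median of all genes. B cell genes lay at a median of −0.12, T cell genes at −0.14, monocyte genes at −0.13 and red pulp macrophage genes at −0.05. Of the 17 tested red pulp macrophage genes, 2 passed the limit on expression through AOS-FMT alone, which fixed their direction. Leaving out 1 library moved the B cell median to between −0.19 (control-FMT replicate 1) and −0.07 (control-FMT replicate 2). For T cells it ran from −0.27 (control-FMT replicate 3) to −0.08 (control-FMT replicate 2), and for monocytes from −0.18 (control-FMT replicate 2) to −0.04 (AOS-FMT replicate 1). For red pulp macrophages it ran from −0.31 (AOS-FMT replicate 2) to 0.04 (AOS-FMT replicate 1). *Cd3e*, of the T cell receptor complex, had 34.7, 36.5 and 41.0 FPKM in AOS-FMT and 51.0, 45.4 and 37.5 FPKM in control-FMT. The groups overlapped. Neutrophil granule genes and megakaryocyte genes lay further from the median of all genes, at −0.20 and −0.26. They were lower in 15 of 15 cases each, against 65.8% of all genes. No gene of these lists was free of overlap, against 15.9% of all genes on the lower side. Ribosomal protein genes lay at 0.01 and subunits of oxidative phosphorylation at −0.01.

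Of 13 tested liver genes 7 passed the limit on expression through AOS-FMT alone, which fixed their direction. Of the other 6, which passed in both groups, 5 were higher in AOS-FMT, 4 of them without overlap. The remaining 1 was lower, also without overlap. Over all tested genes 7.76% were higher and 15.9% lower without overlap. *Alb*, serum albumin, had 18.3, 166.3 and 20.4 FPKM in AOS-FMT and 1.01, 1.11 and 3.31 FPKM in control-FMT, a log2 difference of 3.96 ± 1.38 (adjusted p = 0.355). Every AOS-FMT library was above every control-FMT library for *Alb*. The 4 tested testis genes all passed through AOS-FMT alone. Testis transcripts were highest of the 6 libraries in AOS-FMT replicate 2, at a sum of 1.76, 15.7 and 4.29 FPKM in AOS-FMT and 0.91, 0.7 and 1.42 FPKM in control-FMT. In the control group the liver sum was 24.5, 321.2 and 281.4 FPKM. *Hpx*, haemopexin, is counted in the macrophage list and is also made by liver, and lay at 1.63 with 10.4 FPKM in AOS-FMT replicate 2. It too passed the limit through AOS-FMT alone, which fixed its direction.

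All 19 tested pancreas genes were lower in AOS-FMT, none without overlap, at a median of −0.89 that turned to 0.79 without control-FMT replicate 2 and was −2.53 without control-FMT replicate 1. Fat cell genes were lower in 11 of 11 cases at a median of −0.44 (−1.02 without AOS-FMT replicate 2 and −0.12 without AOS-FMT replicate 3), with sums of 149.7, 337.3 and 100.3 FPKM in AOS-FMT and 122.7, 319.4 and 367.8 FPKM in control-FMT, and the groups overlapped in the sum. No gene of the kidney or endocrine pancreas lists had a mean of 1 FPKM in either group. The medians of the erythroid, haem synthesis, heat shock, clock and type I interferon lists kept their direction when any of the 18 libraries was left out.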

How the data were processed

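RNA from 18 mouse spleen libraries was measured by sequencing, and the authors deposited 1 table of 19326 gene rows in values read here as FPKM. The unit was read from the values. Weighted by transcript length, for the 97.1% of rows where one was known, column sums had a coefficient of variation of 1.49% between libraries, against 7.55% for plain totals, and FPKM and RPKM cannot be separated. Bowtie 0.12.2 and mm10 are named in the submitters' processing notes. The sources used here name no counting program and no annotation. The depth per library is unknown, so no counting interval can be given.

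Columns were matched to samples by their code and number. Genes that averaged 1 FPKM or more in AOS-FMT or control-FMT were kept, a pseudocount of 1 was added before the log2, and limma 3.58.1 with statmod 1.5.0 in R 4.3.3 (trend and robust variance) was fitted to 6 group means over all 18 libraries. Fold changes on this scale understate those of low genes. P-values were adjusted by Benjamini-Hochberg over 12656 genes, with a threshold of 0.05. The contrasts were AOS-FMT minus control-FMT, HFD+AOS minus HFD, and their difference. An exact permutation test of 3 against 3 libraries cannot give a p below 0.1. In simulated data of the first contrast 200 genes were changed, with noise drawn for each gene on its own. Of genes changed by 0.5, 1 and 2 on the log2 scale, 56.8%, 89.5% and 98% were found. Noise shared by many genes was not simulated, so these shares may not hold for the libraries themselves.

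Up to 12 genes in each direction were named. Called genes without overlap and with at least 2 FPKM in the higher group came first, by size, and the rest followed by unadjusted p, leaving out provisional symbols and receptor segments. From each of 49 lists the members of lowest p were eligible. Other genes in the text were chosen after their values were seen, for their role. The genes, lists and contrasts were chosen with earlier results of these data known. Alternatives covered the filter, pseudocount, scaling, libraries fitted, variance model, library weights, a replicate block and each library left out. The replicate numbers come from the labels, which state no shared source. Deviations of same-numbered libraries of HFD+AOS and HFD correlated at 0.244, 0.278 and 0.192. Those of HFD+AOS replicate 3 and HFD replicate 2 correlated at 0.376. These values do not settle whether the numbers pair libraries. Positions are from GENCODE M21 (GRCm38) and promoters from RefSeq.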

Additional observations from a re-analysis of the deposited data

Results flagged for a closer look

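The contrast between AOS-FMT and control-FMT and the contrast between HFD+AOS and HFD, which share no library, differed for *Dbp* by −2.46 ± 0.24 on the log2 scale and for *Nr1d1* by −2.39 ± 0.32, both past the threshold in limma (adjusted p = 0.000339 and 0.00936). Without control-FMT replicate 1 *Dbp* alone was called. All 3 AOS-FMT libraries were below all 3 control-FMT libraries for both genes, and all 3 HFD+AOS libraries were above all 3 HFD libraries. The part of the hour of sampling, which the labels do not give, was not tested.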

How the results depend on the processing

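*Dbp* was called in the transfer contrast in 29 of 30 settings, the exception being the replicate block (adjusted p = 0.166). The number of genes called there was 2 with quantile normalization, 4 with only the libraries compared, 684 with array weights and 0 with the replicate block. In HFD+AOS against HFD it was 1 at a mean of at least 5 FPKM, 2 with median-ratio scaling, 2 with quantile normalization, 12 with only the libraries compared, 6069 with array weights, 102 with the replicate block and 1 without haemoglobin rows, an alternative chosen after seeing the data. For the difference between the contrasts it was 3 with quantile normalization, 5 with only the libraries compared, 2445 with array weights and 13 with the replicate block. Array weights ran between 0.164 and 60.7 and their estimate did not converge. The cause of these changes was not tested. The replicate block was fitted only to the libraries compared, so the matching count without a block is that with only the libraries compared. Same-numbered libraries of AOS-FMT and control-FMT correlated at 0.515, 0.396 and −0.112, and those with unlike numbers at 0.234 or less. These values do not settle whether the numbers pair libraries, so calls with and without the block are given.

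With each library left out in turn, the calls ran from 1 to 4 in the transfer contrast (4 without HFD replicate 3), 0 to 22 in the direct contrast (22 without control replicate 1, 10 without HFD+AOS replicate 3) and 1 to 5 in their difference (1 without control-FMT replicate 1, 5 without HFD replicate 3). Over the libraries left out *Amy2a5* ran from −3.54 (without control-FMT replicate 1) to 0.21 and *Tnnt3* from −0.10 to 0.37 (without control-FMT replicate 1), both turning without control-FMT replicate 2. Median-ratio scaling moved the median of all genes to −0.00734, against −0.0526. The files hold no read depth, which limits low genes most.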

Other observations

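Genes of sugar breakdown and matrix were mostly lower in AOS-FMT, with none past the threshold in limma. Of 19 glycolysis genes 16 were lower, 7 of them without overlap, at a median of −0.20. Over all tested genes 65.8% were lower, 15.9% without overlap, and the median was −0.0526. *Pfkfb3*, which sets the pace of glycolysis, had 19.8, 19.1 and 19.9 FPKM in AOS-FMT and 25.1, 24.9 and 23.1 FPKM in control-FMT (log2 difference −0.30). The lactate transporter gene *Slc16a1* lay higher without overlap, at 45.8, 51.0 and 42.8 FPKM in AOS-FMT and 33.6, 27.9 and 38.4 FPKM in control-FMT. Without control-FMT replicate 1 the glycolysis median was −0.13. Of 20 matrix genes 17 were lower, 10 without overlap, at a median of −0.19, and *Fn1*, fibronectin, had 17.0, 19.3 and 19.5 FPKM in AOS-FMT and 24.8, 22.5 and 24.1 FPKM in control-FMT.

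Among receptors for microbial products 23 of 26 tested genes were lower, 8 without overlap, beside the same shares of all genes, at a median of −0.12, or −0.23 without control-FMT replicate 2. Of the 26, 2 passed the limit on expression through control-FMT alone, which fixed their direction, and *Vdr* is 1 of them. Of the 24 that passed in both groups, 21 were lower, 7 of them without overlap. *Vdr*, the vitamin D receptor, had 1.02, 0.77 and 0.80 FPKM in AOS-FMT and 2.52, 1.40 and 1.04 FPKM in control-FMT. Of 18 tested T cell activation genes 14 were lower, against 65.8% of all genes. Only 1 (5.56%) was so without overlap, a share under the 15.9% of all genes. That gene, the inhibitory receptor *Lag3*, was at 6.60, 5.10 and 6.45 FPKM in AOS-FMT and 16.6, 8.75 and 6.87 FPKM in control-FMT.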
